A study of Azumapecten farreri with 9 samples.

Results

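The miR-96 and miR-263 lines are the scallop hemocyte small RNAs whose listed name is miR-96, miR-182, miR-183, miR-228 or miR-263, with or without a letter. The name rule found 5 of the 417 lines of the deposited table, and 4 of them passed the filter on low values that 162 lines passed. They are mle-miR-96a-5p_1ss19GC, mle-miR-96b-5p_2ss1CA23GA (mle-miR-96b-5p with base changes), mle-miR-96b-3p_1ss19AG, mle-miR-263a-5p and cte-miR-263_R+2_1ss10GT, written below as miR-96a-5p, miR-96b-5p, miR-96b-3p, miR-263a-5p and miR-263. The prefix names the species whose registered miRNA was matched, and the suffix records where the scallop sequence differs from it. No line was named for miR-182, miR-183 or miR-228.

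The RNA came from hemocytes, the immune cells in the hemolymph, of Azumapecten farreri, the Zhikong scallop. One group had received exosomes tied to stimulation with lipopolysaccharide (LPS, a component of bacterial outer membranes), another normal exosomes, and the control group phosphate-buffered saline (PBS), all by injection, with 3 libraries in each. Exosomes are small vesicles released by cells, with RNA among their cargo. The labels give no exosome source, dose, time after injection, age or pooling of animals. Nor do they tie each library to its own animal, so the p-values below measure library-to-library spread alone, and that spread may be technical.

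In vertebrates, miR-96, miR-182 and miR-183 are made from 1 gene cluster and are best known from sensory cells of the ear and eye, where loss of normal miR-96 causes deafness in mice and humans. In Drosophila, the related miR-263a and miR-263b keep sensory bristle cells from dying by repressing the cell death gene hid. A miRNA pairs with its targets mainly through its seed, bases 2 to 8, so family members with different seeds can bind different messenger RNAs. A hairpin precursor gives a 5p and a 3p strand, and usually 1 of them is kept in much larger amount.

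The sequences, copied 5′ to 3′ from the deposited table as DNA letters with the seed in capitals, show that the seeds did not follow the names.
miR-96a-5p: cTTGGCACtggcggaatactcac
miR-263: cTTGGCACttgtagaattcactga
miR-263a-5p: aATGGCACtggtagaattcacgg
miR-96b-5p: aTTTGGCActtgtggaataatca
miR-96b-3p: aTTATACAccggtgccaagtaa
The line named miR-263 carried the seed TTGGCAC of miR-96a-5p, and no other line of the table had that seed. With positions counted from 1 at the 5′ end, the seed of miR-263a-5p differed from the seed of miR-263 by A2T (the base of miR-263a-5p first), and no other line had its seed, ATGGCAC. Over the whole sequence, seed included, the likeness ran the other way. Aligned on their shared letters TGGCAC, miR-263a-5p and miR-263 had 19 of 23 bases in common (82.6%) and shared the run GTAGAATTCAC, whereas miR-96a-5p and miR-263 had 16 of 23 in common (69.6%).

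miR-96b-5p held the same core 1 base later, with TGGCAC starting at position 4 where it starts at position 3 in the other 5p lines. Its seed, TTTGGCA, was therefore the shared core read 1 base out of step. Over the aligned bases it matched miR-96a-5p at 18 of 22 positions (81.8%), miR-263 at 16 of 22 (72.7%) and miR-263a-5p at 14 of 22 (63.6%). The letters TGGCAC occurred in 8 of the 417 lines (1.92%), of which 4 were the 5p lines here. Their reverse complement, GTGCCA, occurred in 1 line (0.240%), miR-96b-3p. In a predicted duplex (RNAduplex, with U for T) miR-96b-5p and miR-96b-3p formed 18 base pairs at -19.4 kcal/mol. A match of letters or a predicted duplex is a description of the sequences and shows no site or target.

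One further line held a member's full sequence. PC-5p-49566_11, a predicted line, is miR-96b-5p with 1 more base at its 3′ end.
PC-5p-49566_11: aTTTGGCActtgtggaataatcaa
It was listed at 4.37 in LPS exosomes replicate 1 and 3.50 in normal exosomes replicate 3, and at 0 in the other libraries. Of the other lines, 12 had the seed ATTGCAC of the miR-92 and miR-25 families, which differs from the seed of miR-263a-5p at 1 base, and PC-5p-59383_7, listed at 0 in 8 libraries, had ATGGCCC.

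The values are the authors' normalized counts, normalized in a way that neither the labels nor the header describe. Of 1990 values above 0, 99.5% were whole multiples (tolerance 0.01) of a fixed unit per library. If that unit is taken as 1 read, library depth was 7063405 to 15676183 inferred reads. In 8 of 9 libraries no value above 0 lay under 5 such reads, so a line listed at 0 may still have had a few. The inferred reads of all 5 members were even numbers in every library, as they were for 109 of 160 lines listed above 0 in at least 7 libraries. For PC-5p-49566_11, the 22 inferred reads were 2 times the 11 that ends its name, so reads given here may count 1 sequenced read more than once. If such a factor is the same for a line in every library, fold changes of that line and group differences of a ratio hardly depend on it. The size of a ratio of 2 lines, and their order, does depend on it where the factor differs between the lines. Whether it differs between the members is not known.

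miR-96a-5p stood far above its relatives and was among the most abundant hemocyte miRNAs. It stood at 97713, 89988 and 79069 normalized counts with LPS exosomes, at 111599, 96890 and 74035 with normal exosomes and at 110859, 98287 and 101223 with PBS. It ranked 6 or 7 among all lines in every library and held 98.6% to 99.6% of the summed signal of the 5 members. Together the members held 1.36% to 2.59% of the signal of a library. Each line is about 1 read long, so levels of different lines were compared without a length correction.

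Within each exosome library the listed values kept the same order, miR-263a-5p above miR-96b-5p and miR-96b-5p above miR-263. No PBS library kept that order. Over the LPS exosome libraries miR-263a-5p, at 541.1 to 876.9, stood clear of miR-96b-5p, at 159.0 to 310.3, and of miR-263, at 95.2 to 218.5. The ranges of miR-96b-5p and miR-263 overlapped there. In the normal exosome libraries miR-263a-5p, at 197.8 to 331.4, lay just above miR-96b-5p, at 127.2 to 195.2, and miR-263 lay below both at 51.7 to 88.1. In the PBS libraries the same 3 lines overlapped, at 162.9 to 222.8 for miR-263a-5p, 144.9 to 326.8 for miR-96b-5p and 162.2 to 184.9 for miR-263. Their ranks among all lines ran from 45 to 75 for miR-263a-5p, from 56 to 75 for miR-96b-5p and from 66 to 100 for miR-263.

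**Figure D1:**
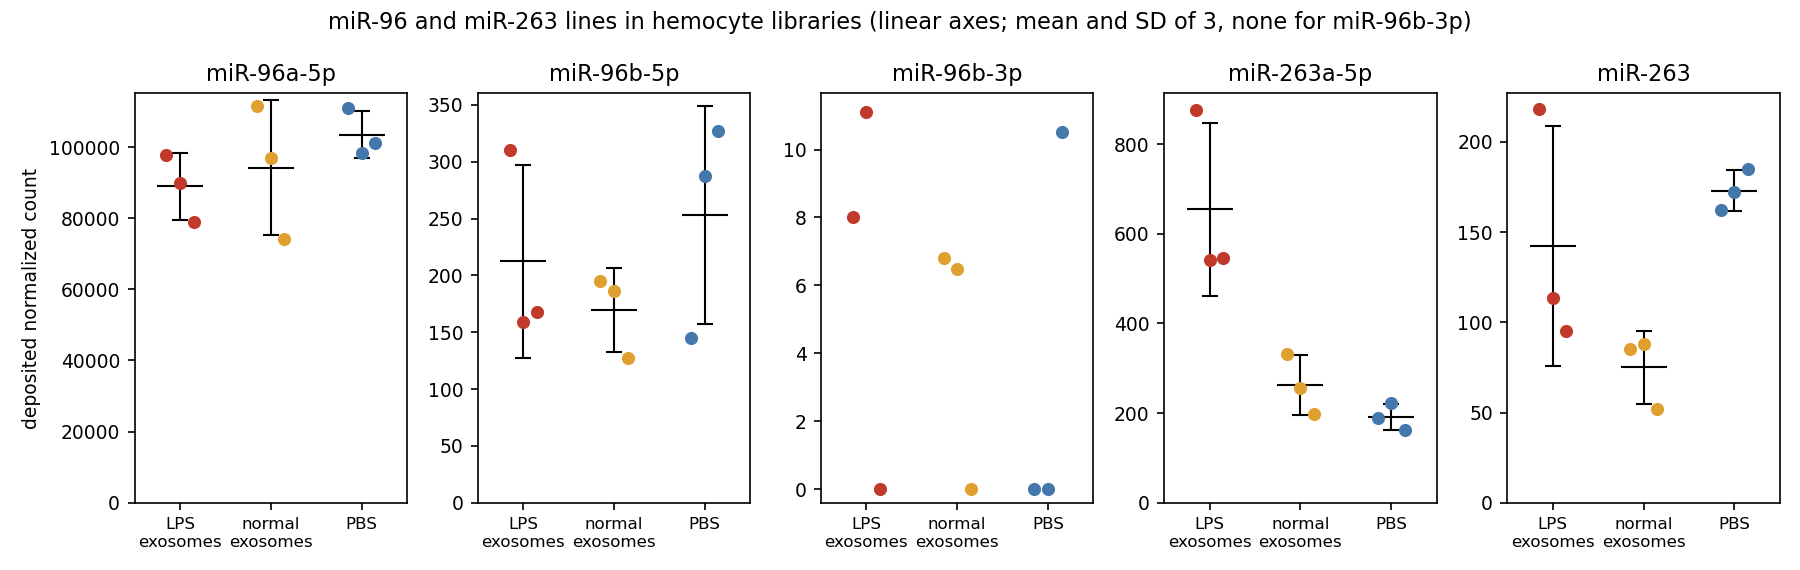
Deposited normalized counts of the 5 lines (vertical axes, linear and separate for each line) in each of the 9 libraries, with the mean and SD of the 3 libraries of a group as bars, left out for miR-96b-3p, which was listed at 0 in 4 libraries. The 3 LPS exosome libraries lie above all others for miR-263a-5p, and the 3 normal exosome libraries lie below all others for miR-263.

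Of the 4 tested members, miR-263a-5p was the only one called in any comparison. In the LPS exosome libraries it stood at 876.9, 541.1 and 545.2, in the normal exosome libraries at 331.4, 255.8 and 197.8, and in the PBS libraries at 188.2, 222.8 and 162.9. All LPS exosome libraries lay above every other library, while the normal exosome and PBS groups overlapped. Its inferred reads were 878 to 2408 with LPS exosomes, 552 to 584 with normal exosomes and 310 to 404 with PBS.

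Against PBS, miR-263a-5p rose 3.35-fold in the LPS exosome libraries (95% interval 2.11 to 5.30), with means of 654.4 ± 193 against 191.3 ± 30.1 (SD, n = 3 each; limma with Benjamini-Hochberg adjustment over 162 lines, adjusted p = 0.0105). By p it was the third of all lines in that comparison, in which 3.09% of the 162 lines rose, 1.23% fell and 4.32% were called in either direction. Of the 4 tested members 1 rose, this one, and 0 fell. A group of LPS exosome libraries wholly above the PBS libraries was seen in 11.7% of the tested lines.

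Against normal exosomes, miR-263a-5p rose 2.48-fold in the LPS exosome libraries (95% interval 1.57 to 3.93; limma, Benjamini-Hochberg adjusted p = 0.0397). Of the 4 tested members 1 rose and 0 fell in that comparison, in which 3.70% of the 162 lines rose and 0.617% fell, and groups without overlap, LPS exosomes higher, were seen in 12.3%. Between normal exosomes and PBS the log2 fold change of miR-263a-5p was 0.43 ± 0.30 (SE; 95% interval -0.23 to 1.09; limma adjusted p = 0.479). These comparisons share libraries in pairs and are not independent of each other.

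The LPS exosome difference of miR-263a-5p kept its direction in every alternative run, but not always its call. Alternatives that changed only the estimate of spread, the other lines tested or a library outside the comparison could not move the log2 fold change. They bear on the call alone. Over 21 alternatives against PBS the log2 fold change of miR-263a-5p ran from 1.51 to 1.87, and 18 kept the call. The call was lost without LPS exosomes replicate 1, the library of the highest value (log2 fold change 1.51, limma adjusted p = 0.0718), without LPS exosomes replicate 2 (1.86, adjusted p = 0.0595) and without PBS replicate 3 (1.63, adjusted p = 0.0817), and the adjusted p over all alternatives ran from 0.00277 to 0.0817. Against normal exosomes the log2 fold change was 1.08 to 1.66, 10 of 21 alternatives kept the call, and the adjusted p ran from 0.00374 to 0.133. There the call was lost without every library except PBS replicate 1.

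**Figure D2:**
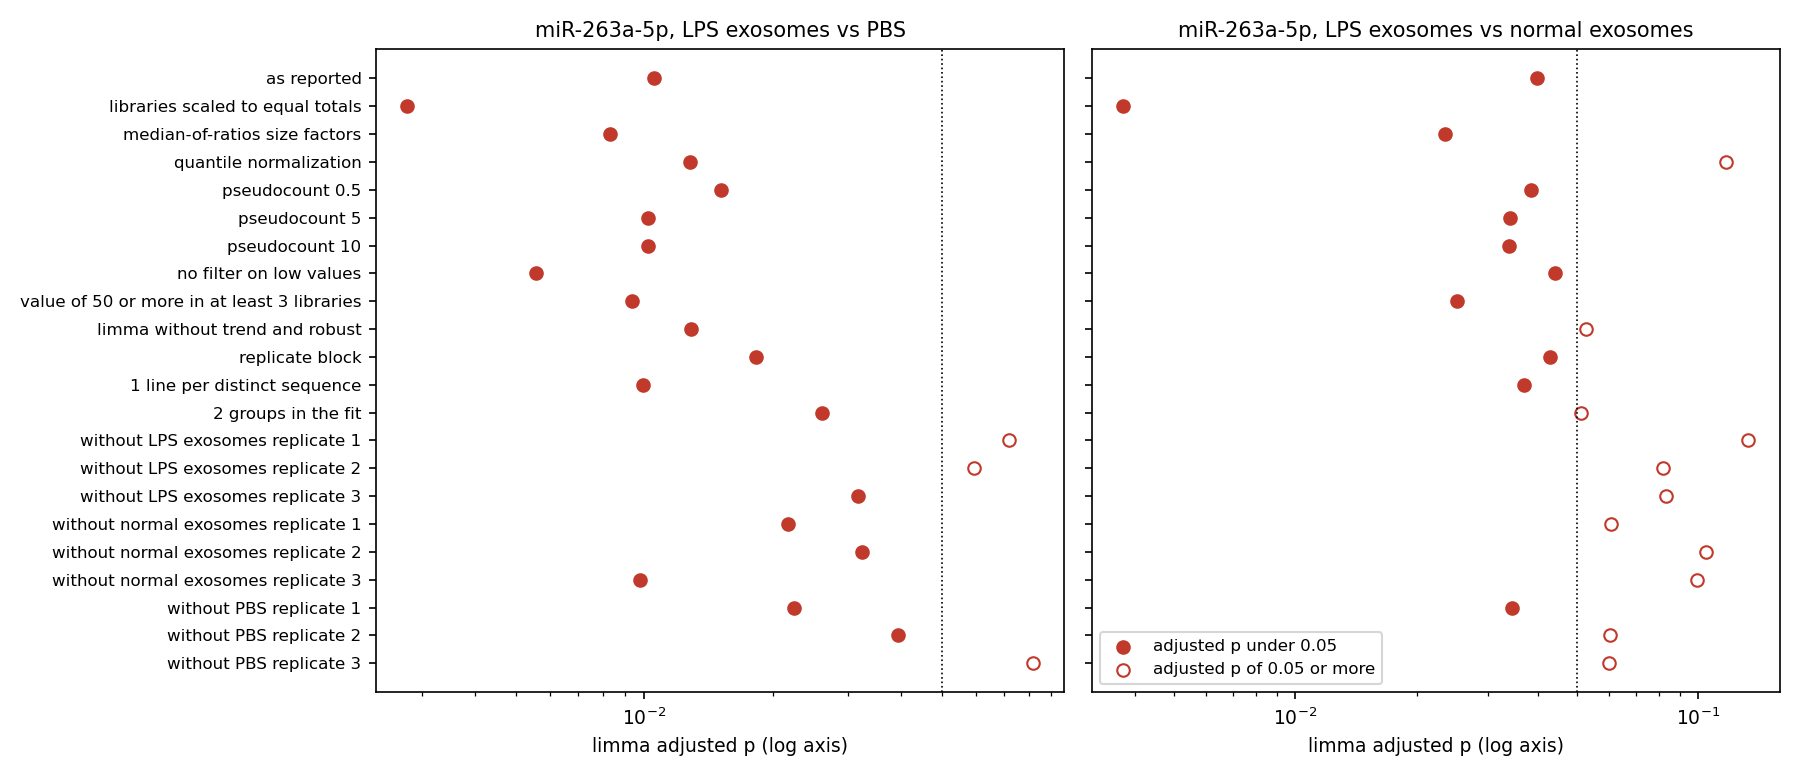
Limma adjusted p of miR-263a-5p (horizontal axes, log scale) as reported and under each of 21 alternatives, for LPS exosomes vs PBS and LPS exosomes vs normal exosomes, with the threshold of 0.05 dotted. Filled points lie under the threshold: 18 alternatives do in the first comparison and 10 in the second.

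miR-263, which has the seed of miR-96a-5p, differed most in the normal exosome libraries. It stood at 218.5, 113.4 and 95.2 with LPS exosomes, at 85.1, 88.1 and 51.7 with normal exosomes and at 162.2, 172.0 and 184.9 with PBS. The normal exosome libraries lay below all others. In the LPS exosome group replicate 1 lay above every PBS library and the other 2 below every one.

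Normal exosomes against PBS gave a log2 fold change of -1.23 ± 0.38 for miR-263 (SE; 95% interval -2.08 to -0.38), which did not pass the limma test (unadjusted p = 0.00933, Benjamini-Hochberg adjusted p = 0.103). In that comparison 0 of the 4 tested members were called, while 1.85% of the 162 lines rose and 2.47% fell, and 27 lines had an unadjusted p under 0.05. Normal exosome libraries wholly below the PBS libraries were seen in 12.3% of the tested lines. With libraries scaled to equal totals miR-263 passed, at a log2 fold change of -1.45 (limma adjusted p = 0.0387), and over the 21 alternatives the adjusted p ran from 0.0387 to 0.279. Its log2 fold change was 0.86 ± 0.38 for LPS exosomes vs normal exosomes (SE; limma adjusted p = 0.299) and -0.37 ± 0.38 for LPS exosomes vs PBS (adjusted p = 0.613). The first was 0.50 without LPS exosomes replicate 1, and the second was -0.73 without LPS exosomes replicate 1 and -0.13 without LPS exosomes replicate 3.

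miR-96a-5p and miR-96b-5p did not pass the test in any comparison. For miR-96a-5p the log2 fold changes were -0.22 (95% interval -0.59 to 0.15) for LPS exosomes vs PBS, -0.15 (-0.52 to 0.22) for normal exosomes vs PBS and -0.07 (-0.44 to 0.30) between the exosome groups, with limma adjusted p of 0.492, 0.650 and 0.853. Quantile normalization gave values of 0.06, 0 and 0.06, so no direction is given for this abundant line. Its LPS exosome libraries lay below its PBS libraries without overlap, as in 17.3% of the tested lines.

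miR-96b-5p stood at 310.3, 159.0 and 167.7 with LPS exosomes, at 195.2, 186.3 and 127.2 with normal exosomes and at 144.9, 287.8 and 326.8 with PBS. PBS replicate 1 and LPS exosomes replicate 1 lay far from the other libraries of their groups, and all groups overlapped. Its log2 fold changes had wide intervals, at -0.24 (95% interval -1.14 to 0.66) for LPS exosomes vs PBS, -0.52 (-1.42 to 0.38) for normal exosomes vs PBS and 0.28 (-0.62 to 1.18) between the exosome groups, with limma adjusted p of 0.779, 0.530 and 0.742. With 1 library left out, they ran from -0.60 (without PBS replicate 1) to -0.014 (without PBS replicate 3) for LPS exosomes vs PBS, and from -0.88 to -0.29 without the same libraries for normal exosomes vs PBS. Between the exosome groups the value was -0.029 without LPS exosomes replicate 1 and 0.45 without LPS exosomes replicate 2.

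The partner strand, miR-96b-3p, was near the floor of the table. It was listed at 8.01, 11.1 and 0 with LPS exosomes, at 6.81, 6.49 and 0 with normal exosomes and at 0, 0 and 10.5 with PBS, and was not tested. Summed over the 9 libraries, miR-96b-5p had 44.4 times its signal, and the 3p strand held 2.20% of the signal of both. No 3p line of miR-96a or of either miR-263 was found by the name rule.

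**Figure D3:**
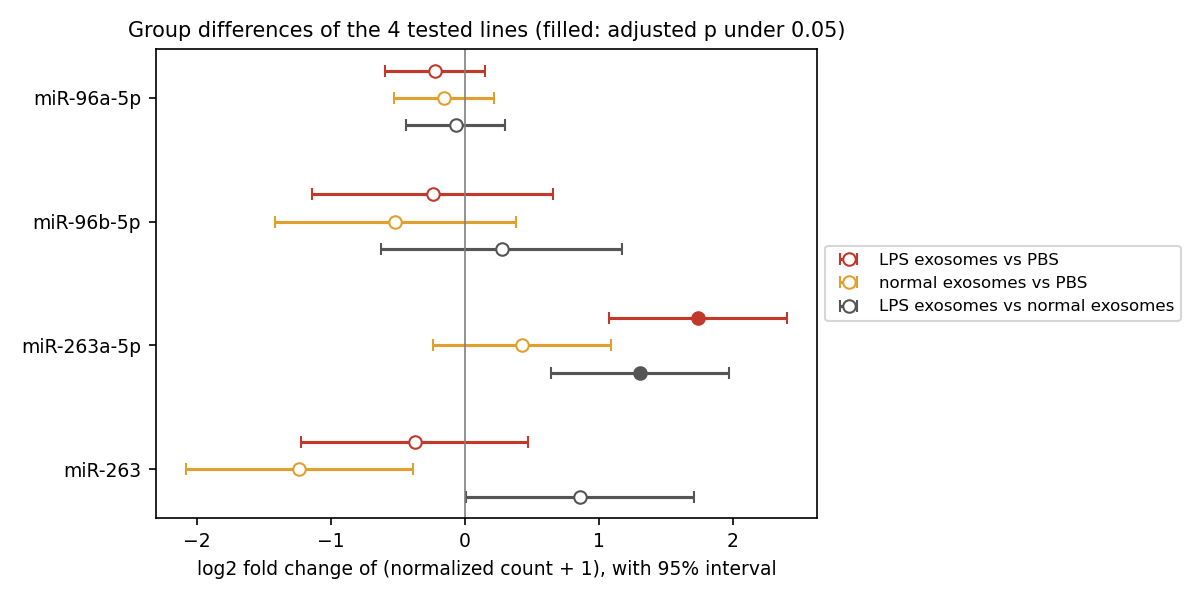
Log2 fold change of the normalized count + 1 (horizontal axis) with its 95% interval for the 4 tested lines in the 3 comparisons, filled where the limma adjusted p was under 0.05. miR-263a-5p is filled in both comparisons of LPS exosomes, at 1.74 and 1.31, and no other line is filled.

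**Figure D4:**
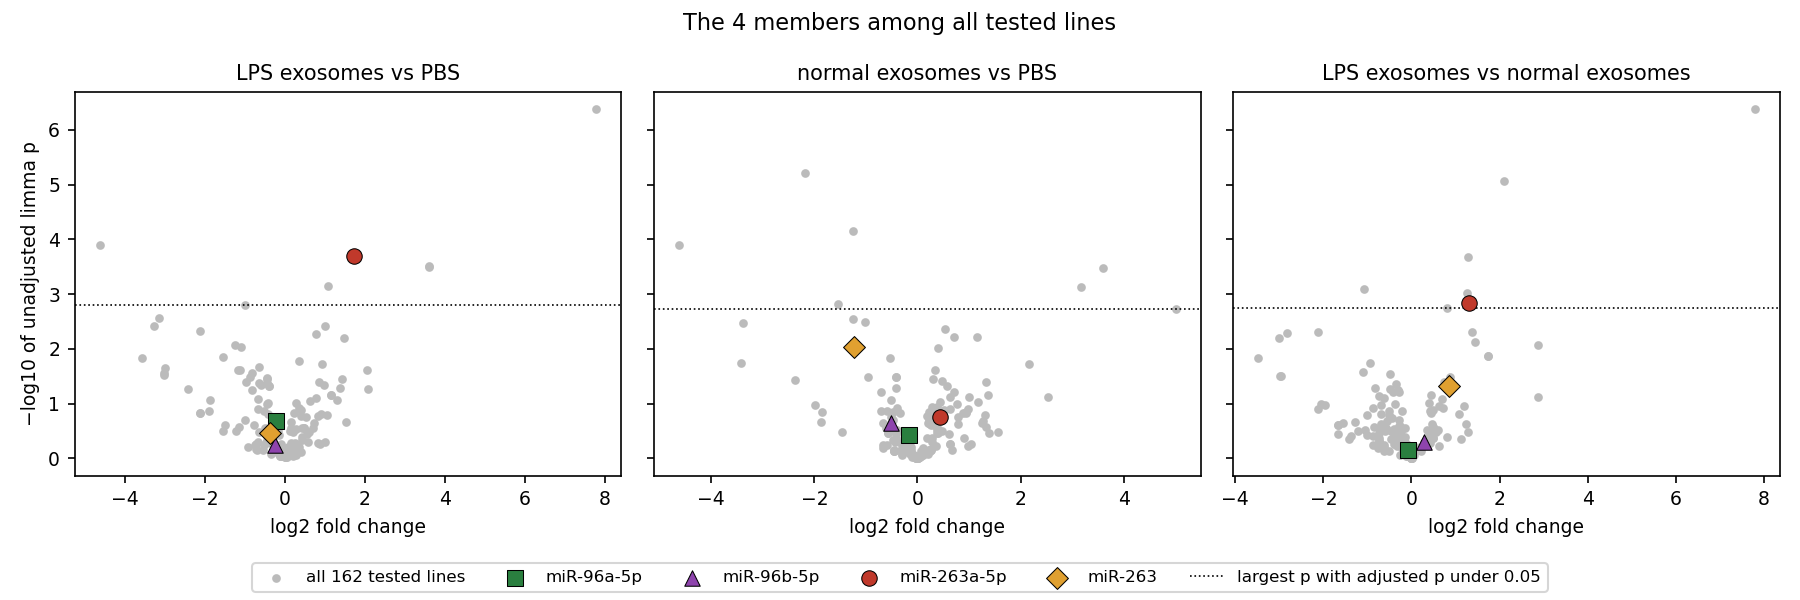
Log2 fold change (horizontal axes) and −log10 of the unadjusted limma p (vertical axis) of all 162 tested lines in grey with the 4 members marked, for the 3 comparisons. The dotted line marks the largest p that passed after adjustment. miR-263a-5p lies above it in both comparisons of LPS exosomes, and the other members lie below it throughout.

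The median log2 fold change of the 4 tested members was -0.23 for LPS exosomes vs PBS, -0.34 for normal exosomes vs PBS and 0.57 between the exosome groups. Over all 162 lines the medians were -0.06, -0.00 and -0.15. The members did not share 1 pattern across the 9 libraries. Pearson's r of their log2 values, given as a description, was 0.75 for miR-96b-5p with miR-263, 0.57 for miR-96a-5p with miR-263 and 0.41 for miR-96a-5p with miR-96b-5p. For miR-263a-5p it was 0.15 with miR-263, 0.10 with miR-96b-5p and -0.18 with miR-96a-5p.

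Ratios of 2 lines within a library do not depend on how libraries were scaled, and they set the members directly against each other. Against miR-263, the line nearest to it in sequence, miR-263a-5p had ratios of 4.01, 4.77 and 5.73 with LPS exosomes, 3.89, 2.91 and 3.82 with normal exosomes and 1.16, 1.29 and 0.881 with PBS. The exosome groups thus both lay above PBS without overlap, with means of 4.84 ± 0.858, 3.54 ± 0.552 and 1.11 ± 0.211 in that order (SD, n = 3). Relative to PBS the ratio was 4.36 times as high with LPS exosomes and 3.20 times as high with normal exosomes. The levels above show miR-263a-5p called higher with LPS exosomes and miR-263 listed lower, though not called, with normal exosomes.

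Against miR-96b-5p, miR-263a-5p had ratios of 2.83, 3.40 and 3.25 with LPS exosomes, 1.70, 1.37 and 1.55 with normal exosomes and 1.30, 0.774 and 0.498 with PBS. Its listed value was thus the higher of the pair in all exosome libraries and in 1 of 3 PBS libraries. Against miR-96a-5p its ratio was 0.00729 ± 0.00152, 0.00276 ± 0.000182 and 0.00186 ± 0.000357 with LPS exosomes, normal exosomes and PBS (SD, n = 3 each).

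Of 18 ratio comparisons, 6 ratios in 3 contrasts, 13 had groups without overlap. Each of those had an exact two-sided permutation p of 0.1, the smallest that 3 against 3 libraries allow, and a Benjamini-Hochberg adjusted p of 0.138 over the 18. The ratios share lines, so the 18 are not independent, and every comparison with miR-263a-5p on top is among the 13. How often ratios of other lines separate in this way was not computed, so the count of 13 is a description only. The 9 comparisons with miR-263 were added after the table had been read. Ratios of miR-96b-5p to miR-96a-5p overlapped in all 3 contrasts (exact permutation p of 0.9, 0.4 and 0.2 for LPS exosomes vs PBS, normal exosomes vs PBS and LPS vs normal exosomes).

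**Figure D5:**
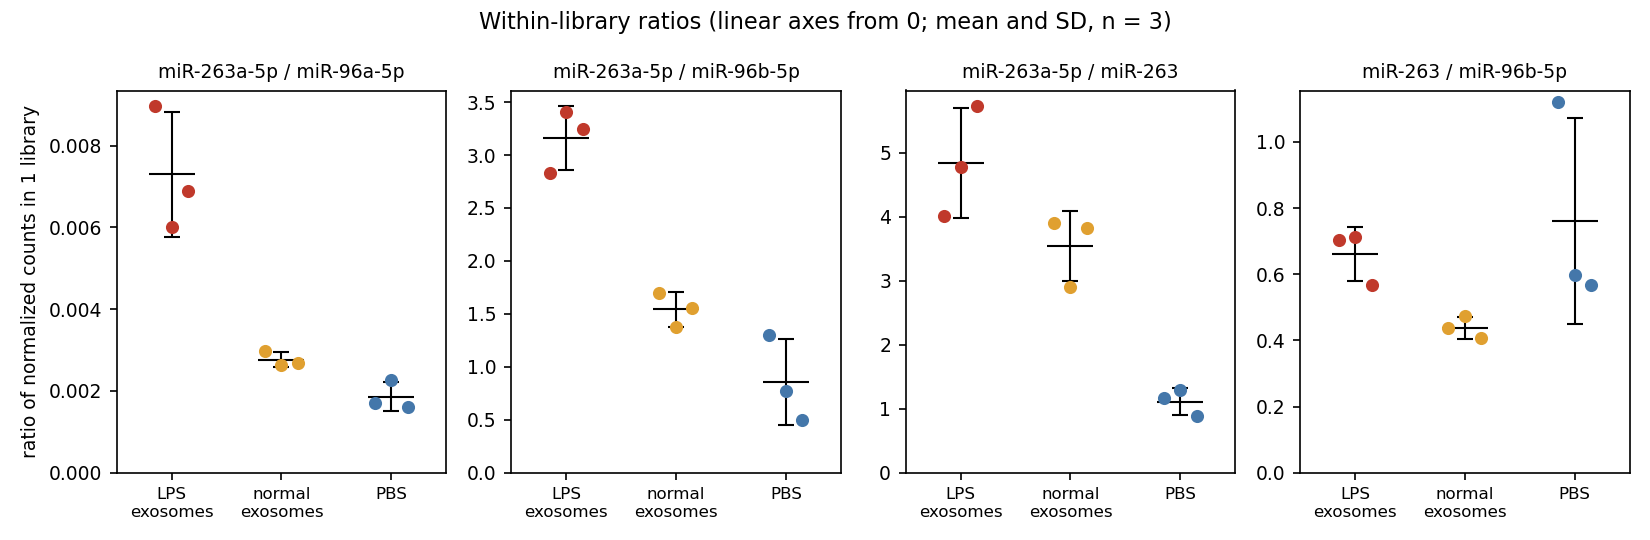
Ratio of the normalized counts of 2 lines within each library (vertical axes, linear from 0), with the mean and SD of the 3 libraries of a group. The 3 panels with miR-263a-5p on top run highest with LPS exosomes and lowest with PBS, and in the panel of miR-263 over miR-96b-5p the normal exosome libraries, at 0.407 to 0.473, are lowest.

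Ranked by Pearson's r with each member across the 9 libraries (log2 values), the tested lines most like miR-263a-5p were mle-miR-10b-5p_R-1_2ss9GT21TA (0.92), PC-3p-1990_749 (0.92), a predicted line listed at 0 outside the LPS exosome libraries, and mle-miR-216b-5p (0.82). Both mle-miR-10b-5p_R-1_2ss9GT21TA and PC-3p-1990_749 rose in both comparisons of LPS exosomes by the limma test, and mle-miR-216b-5p rose against normal exosomes (adjusted p = 0.0314) but did not pass against PBS (adjusted p = 0.0631). PC-3p-1990_749 passed the filter on low values through its LPS exosome libraries alone. Those most like miR-263 were mle-miR-8-3p (0.90), lgi-miR-10 (0.83) and mle-miR-31-5p (0.80). Of these, mle-miR-31-5p was called, with a log2 fold change of -2.18 for normal exosomes vs PBS (limma adjusted p = 0.000983) and 2.09 for LPS exosomes vs normal exosomes (adjusted p = 0.00069). Those most like miR-96b-5p were mle-miR-981-3p (0.86), mle-miR-8-3p (0.78) and miR-263 (0.75), and those most like miR-96a-5p were PC-3p-308_7012 (0.86), lgi-miR-7 (0.81) and mle-miR-2b-3p_1ss11AT (0.73). The points of each r share 3 groups and their libraries, and no p is given. Lines picked for a high r with a member tend to share its group differences, so their calls are no separate evidence for it.

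Other families known from sensory organs or epithelia were listed for comparison, among them miR-279, which in Drosophila shapes the neurons that sense carbon dioxide, and miR-8, a relative of the vertebrate miR-200 family of epithelia. Of 10 such lines 4 were tested, and 0 were called higher or lower in any of the 3 comparisons. Over all 162 tested lines 4.32% were called in each comparison, so a count of 0 among 4 says little about these families. Their median log2 fold change was 0.06 for LPS exosomes vs PBS, -0.65 for normal exosomes vs PBS and 0.70 between the exosome groups. The 3 of highest mean, mle-miR-279-3p_R-1, lgi-miR-7 and mle-miR-8-3p, had log2 fold changes of 0.07, 0.10 and 0.04 for LPS exosomes vs PBS, where miR-263a-5p had 1.74. For normal exosomes vs PBS they had -0.71, -0.29 and -0.58, where miR-263 had -1.23. The fourth tested line, aca-miR-200a-3p_R+1, was listed at 0 in 4 libraries and had -0.33 ± 1.44 for LPS exosomes vs PBS and -1.46 ± 1.44 (SE) for normal exosomes vs PBS.

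The libraries were bulk hemocyte RNA, in which fewer cells of a type and less RNA per cell cannot be told apart, and no miRNA that defines scallop hemocytes could be checked. Of markers of other tissues, the 3 neural lines (miR-9 and miR-124) were at or near 0, with sums of 0 to 8.74 in LPS exosome, 0 in normal exosome and 0 to 6.62 in PBS libraries. The 7 muscle lines (miR-1 and miR-133) summed to 138267 to 220526 in LPS exosome, 179221 to 230147 in normal exosome and 132632 to 206292 in PBS libraries, with 0 of 5 tested lines called. Among those tested, aca-miR-133a-3p_L-1R+3 and chi-miR-133a-3p_L-1R+2 had the same mean, range and fold changes. Over all 162 tested lines 4.32% were called in each comparison, so counts over lists this short say little. The 4 gut and endocrine lines summed to 732 to 886, 411 to 588 and 459 to 647 in the same order, higher in every LPS exosome library than elsewhere, as miR-263a-5p was. Most of that sum was mle-miR-216b-5p, the 1 of 3 tested lines that was called, with log2 fold changes of 1.26 for LPS vs normal exosomes (limma adjusted p = 0.0314) and 1.02 for LPS exosomes vs PBS (adjusted p = 0.0631). In the same comparisons mle-miR-375-3p had values of the other sign, -0.95 (adjusted p = 0.170) and -1.09 (adjusted p = 0.0996), and aca-miR-194-5p had -1.37 and 0.20. The list's median was -0.95 for LPS vs normal exosomes and 0.20 for LPS exosomes vs PBS, so its lines did not move together. The part of tissue make-up in the result for miR-263a-5p was not tested.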

How the data were processed

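Per the labels' protocols, the TruSeq small RNA kit was used for the hemocyte libraries, and reads from an Illumina HiSeq were cleaned with ACGT101-miR (adapters, low-complexity reads, repeats and other RNA families taken out). The deposited table gives 1 signal value per line and library, a normalized count per the file headers. How values were normalized, the aligner and the build: not given in the sources used here. Here, 162 lines that reached 10 in 3 or more libraries (99.99% of the signal) were tested with limma 3.58.1 (R 4.3.3, statmod 1.5.0; trend and robust on), which fitted 3 group means to log2(value + 1) of all 9 libraries together. A line was called at a Benjamini-Hochberg adjusted p under 0.05. Fold changes are on the log2(value + 1) scale, which understates changes of low lines. Ratios were tested with an exact permutation test (scipy 1.17.1), and RNAduplex was from ViennaRNA 2.7.2. The model was first run on simulated data with planted changes and independent normal noise for each line. That check bears on the code, not on the calls reported here. The named lines were the members, lines of like seed, the 3 lines of highest r with each member, and the called or 3 most abundant lines of the sensory and epithelial list. Members and lists were chosen with earlier results of these data known. Inferred reads were not used in any test. The precision of a value is limited by its sequenced reads. Each value of a tested member stood for 148 or more inferred reads, which may count 1 sequenced read more than once. Alternatives covered scaling, pseudocounts of 0.5, 5 and 10, filters, limma settings, samples in the fit, a replicate block, duplicate lines and each library left out.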

Additional observations from a re-analysis of the deposited data

How the results depend on the processing

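Of the 12 log2 fold changes (4 lines, 3 comparisons), those of miR-263a-5p and miR-263 kept their direction in all 21 alternatives of each comparison. So did those of miR-96b-5p in both comparisons with PBS. Not every alternative could move a log2 fold change. The call of miR-263a-5p in LPS exosomes vs normal exosomes was lost with quantile normalization (1.13), without limma's trend and robust settings (1.31) and with 2 groups in the fit (1.31). Leaving out 1 library gave miR-263a-5p 1.51 to 1.86 for LPS exosomes vs PBS and 1.08 to 1.50 for LPS vs normal exosomes. Scaling to equal totals gave miR-263 a call in normal exosomes vs PBS (-1.45) and turned miR-96a-5p between the exosome groups (0.28). Under it the median over all lines was 0.11, -0.22 and 0.16 (log2) in LPS exosomes vs PBS, normal exosomes vs PBS and LPS vs normal exosomes, against -0.06, -0.00 and -0.15 as deposited. Quantile normalization turned miR-96a-5p to 0.060, 0 and 0.060 in the same order. With 1 library left out, miR-96a-5p ran from -0.29 to 0.0093 for normal exosomes vs PBS and from -0.23 to 0.065 between the exosome groups, and miR-96b-5p between the exosome groups from -0.029 to 0.45. The cause of these changes was not tested.

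Same-numbered libraries of different groups had r from -0.30 to 0.29 in their deviations (over 0.1 in 4 of 9 pairs). Differently numbered libraries had r from -0.35 to 0.36. The numbers were not taken to pair libraries, though these values cannot settle whether libraries were paired. With the replicate block, miR-263a-5p kept both calls, at 1.74 against PBS (limma adjusted p = 0.0183) and 1.31 against normal exosomes (0.0429), and the count of called lines for normal exosomes vs PBS was 3 against 7. That count, 3 of 7 higher as deposited, was 12 (3 higher) with equal totals, 2 (0 higher) with quantile normalization, 4 without a filter, with a filter at 50 and with 2 groups in the fit, and 2 to 6 with 1 library left out. For LPS exosomes vs PBS it was 7 (5 higher), against 6 (5 higher) with equal totals, 4 with a filter at 50 or 2 groups in the fit, and 0 to 10 with 1 library left out. It was 0 (limma) without LPS exosomes replicate 1 or 2, with 21 and 23 lines at an unadjusted p under 0.05. Between the exosome groups it was 7 (6 higher), against 3 (3 higher) with quantile normalization, 2 without trend and robust settings and 1 to 10 with 1 library left out. Equal totals gave 7 higher of 7 called there. Of the 18 ratio differences, 3 changed direction, in 6 of 126 alternatives, all 3 of them in LPS exosomes vs PBS and without miR-263a-5p. The largest shift of a ratio difference was 0.41 (log2). Shifts were also set against 1 SD, but leaving out 1 of 3 libraries cannot move a difference that far, so nothing is drawn from it. The planned edgeR fit was not run, since the table holds no raw counts.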

Other observations

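For predicted lines, whose names end in a number, the inferred reads summed over the 9 libraries were exactly 2 times that number for 118 lines and equal to it for 14. Another 72 stood at other multiples. The names of the miR-96 and miR-263 lines carry no such number, so the same comparison could not be made for them. Their inferred reads were even in all 9 libraries, and what made them so was not tested.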
